A study of Mus musculus with 15 samples.

Results

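The genes described here are 10 genes of the cyclic AMP (cAMP) response in mouse embryonic fibroblasts (MEFs): the orphan nuclear receptors Nr4a1, Nr4a2 and Nr4a3, the cAMP-responsive transcription factor Crem, the salt-inducible kinase Sik1, the membrane-bound transcription factor Creb3l1, and the phosphodiesterases Pde4b, Pde4d, Pde3a and Pde7b. They were chosen by name, with earlier results of these data known. Their mouse symbols were matched to the Ensembl identifiers of the counts. All 10 were found among 46603 genes, and all 10 were among the 15997 genes with enough counts for testing. cAMP is made by adenylyl cyclases, activates protein kinase A and the Epac proteins, and is broken down by phosphodiesterases. Protein kinase A phosphorylates the factor CREB, which binds cAMP response elements in DNA and switches on genes such as the Nr4a receptors, Sik1, the inhibitory short forms of Crem and several phosphodiesterases, so that the pathway limits itself. IBMX, an inhibitor of most phosphodiesterases, keeps cAMP from being broken down and is a usual part of the mixture that starts fat cell formation in cultured fibroblasts.

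The study followed wild-type MEFs from BALB/c embryos of 10.5 days. The paper's introduction describes MEFs in general with another strain and a later embryo age, and its methods give neither. Cells were collected on day 0 (MEFD0), after 3 days in growth medium (MEFD3min) or in the same medium with IBMX (0.5 mM), insulin (10 µg/mL), dexamethasone (1 µM), a glucocorticoid, and rosiglitazone (10 µM), which activates Pparg (MEFD3plu), and on day 5. From day 3 the treated cells (MEFD5plu) were kept for 2 days in growth medium, so that IBMX and the other agents were removed, and untreated cells (MEFD5min) were kept in growth medium throughout. RNA was sequenced from 3 samples per condition, numbered 1, 3 and 4. IBMX was always given with the other agents, so its effect and theirs cannot be told apart in these samples. No treated cells were kept with the agents until day 5, so removal and 2 more days of culture cannot be told apart either. Sequencing depth ran from 24030558 to 37281126 counts. Levels are given in CPM, the usual scale of counts relative to library size, after scaling of the libraries by edgeR's TMM method, always in the order of samples 1, 3 and 4. Differences are log2 fold changes with their standard errors from edgeR's quasi-likelihood test, and a gene was called when its p, adjusted by Benjamini-Hochberg over all 15997 genes tested, was under 0.05. The methods speak in general of independent experiments, but neither they nor the labels say whether the 3 sequenced samples of a condition came from separate cultures or embryos, so the p-values measure only the spread between these samples.

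The cell types were checked against marker genes. None of the 8 fibroblast markers was at the floor, taken as 3 counts or fewer in every library of a condition, and their summed level in MEFD0 was 2391, 2797 and 1972 CPM. It was 9789, 11030 and 10767 with treatment and 18451, 25886 and 20360 without it on day 3, and 9184, 7030 and 8325 with and 9639, 6871 and 8437 without treatment on day 5. In this sum, untreated samples of day 3 were the highest and those of day 0 the lowest, while the groups of day 5 overlapped. Collagen genes led the sum, Col1a2 in MEFD0 and MEFD5min and Col3a1 in the other conditions, and single genes differed from it. Thy1 had a mean of 93.1 CPM in MEFD0, 76.2 in MEFD3min and 15.05 in MEFD3plu, and Pdgfrb was highest in MEFD3plu, at 118. With treatment, 6 of the 8 were called lower and 1 higher on day 3, and 2 lower and 2 higher on day 5. Over all genes, 28.0% were lower on day 3 and 24.2% on day 5. The 8 adipocyte markers summed to 45.5, 49.7 and 47.7 CPM in MEFD0. On day 3 the sums were 4038, 3873 and 5029 CPM with treatment against 21.0, 24.9 and 25.5 without it, and on day 5 6226, 7439 and 7035 against 19.2, 20.4 and 20.4. Of the 7 adipocyte markers tested, 7 were higher in treated cells on both days (median log2 fold change 8.96 on day 3 and 9.35 on day 5). Over all genes tested, 28.0% were higher in treated cells on day 3 and 26.3% on day 5. Untreated samples were low in adipocyte markers and treated samples high, with no overlap, and the most abundant of these genes was Fabp4 in every treated sample and Pparg in every untreated sample of day 3 and day 5. In MEFD0, Plin4 led in samples 1 and 3 and Pparg in sample 4. Among the adipocyte markers, Adipoq and Lep were at or under the floor in MEFD0, Plin1 and Lep in MEFD3min, Adipoq, Plin1, Cidec and Lep in MEFD5min, and Lep alone in MEFD3plu and MEFD5plu. The share of counts on mitochondrial genes also moved with treatment, from 2.44% to 4.12% in MEFD3min and 2.19% to 2.61% in MEFD5min to 5.26% to 6.64% in MEFD3plu and 4.96% to 5.86% in MEFD5plu. The part of these marker and mitochondrial changes in the results below was not tested. In such bulk samples, fewer cells of a type and less RNA per cell cannot be told apart.

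Markers of other cell types were low. The 8 macrophage markers summed to a mean of at most 6.40 CPM in any condition (MEFD5min, led by Cd68), with Adgre1, Tyrobp, C1qa and Itgam at or under the floor in each condition. The 7 endothelial markers reached a mean of 14.8 CPM in MEFD5min, led by Emcn at 12.5 CPM and followed by Cdh5 at 1.95 CPM. Tie1 and Cldn5 were at or under the floor in every condition. Neuronal markers reached a mean of 11.2 CPM in MEFD0, where Tubb3 led with 7.90 CPM and Rbfox3, Stmn2 and Dcx were at or under the floor. Some of these genes were called between treated and untreated cells on day 3: of 5 neuronal markers tested, 2 were higher and 3 lower. Over all genes tested, 28.0% were higher and 28.0% lower in that comparison. Snap25 had 1 count in MEFD3min and 549 in MEFD3plu, Elavl4 was lower, at -4.72 ± 0.284 (adjusted p = 2.7e-10) and so was Tubb3, at -2.88 ± 0.28 (adjusted p = 1.33e-07), and the endothelial Cdh5 had 35 counts in MEFD3min and 0 in MEFD3plu. Lyz2, Syt1 and Krt8 were also called lower and Dcx and Des higher. On day 5, Elavl4, Cdh5, Cd68 and Acta1 were called lower in treated cells and Snap25, Dcx, Krt8 and Des higher. The epithelial and skeletal muscle lists reached 1.46 and 2.41 CPM in their highest samples, with Epcam, Cdh1, Myod1 and Myog at or under the floor throughout.

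With the agents present, 8 of the 10 genes were called in MEFD3plu/MEFD3min, 6 higher and 2 lower, where 56.1% of all genes tested were called. Nr4a1, Nr4a3, Sik1, Pde4b, Pde4d and Pde3a were upregulated, and Nr4a2 and Pde7b were downregulated. The median log2 fold change of the 10 genes was 1.79, against -0.00 for all genes tested. After removal of the agents, 7 of the 10 were called in MEFD5plu/MEFD5min beside 50.5% of all genes. Of these only Pde4b and Pde4d remained higher in treated cells, and Nr4a1, Nr4a2, Nr4a3, Sik1 and Pde3a were lower. The median was -0.30, against 0.01 for all genes. When 1 sample was left out, the count at day 3 stayed at 8 and that at day 5 was 5 or 6.

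**Figure D1:**
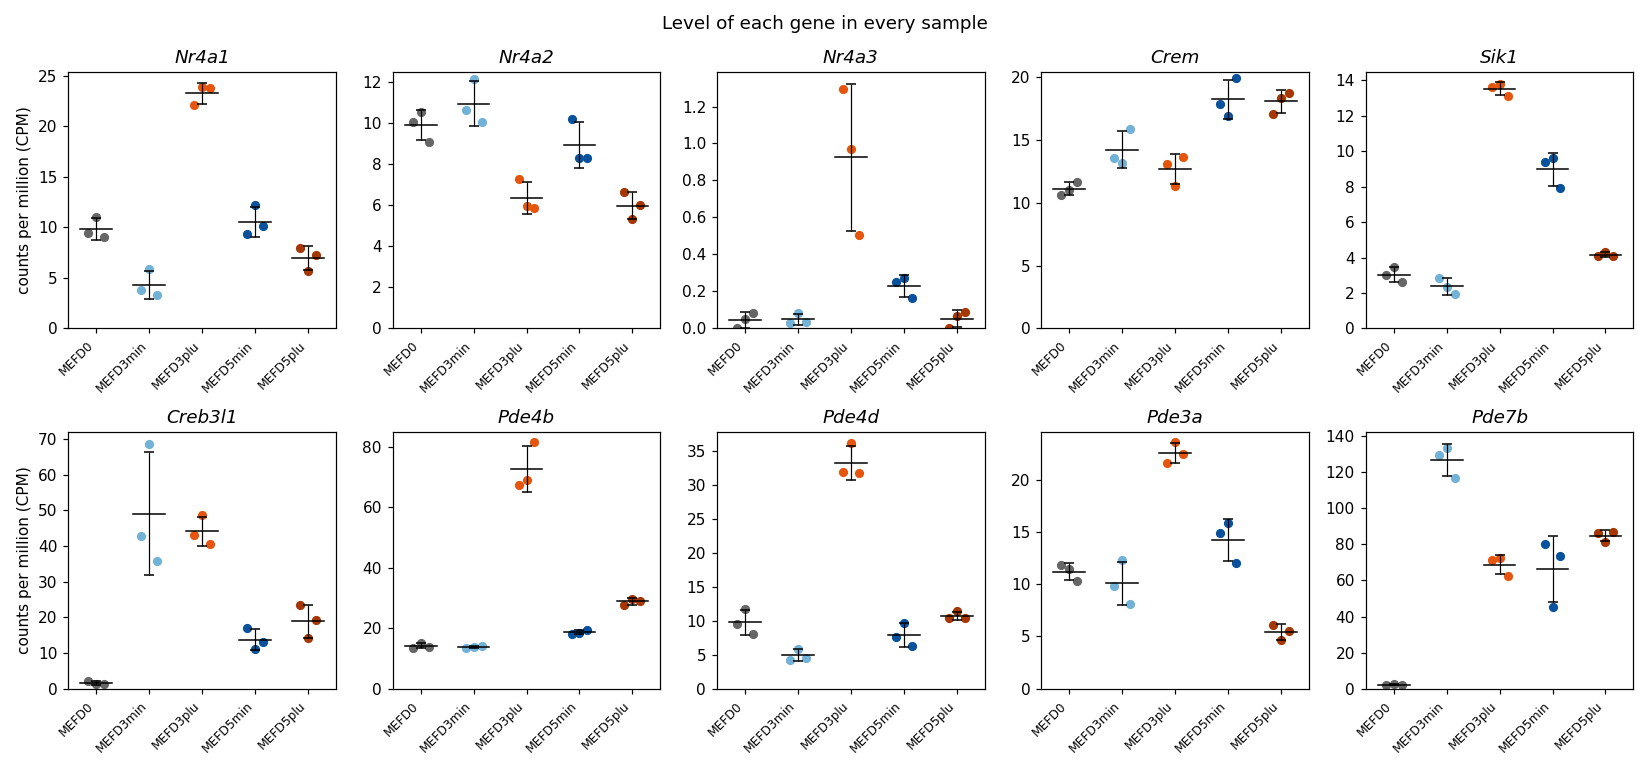
Level of each of the 10 genes in CPM on the y axis for the 5 conditions on the x axis, with a point for each of the 3 samples, a line at the mean and bars of 1 SD. Nr4a1, Nr4a3, Sik1, Pde4b, Pde4d and Pde3a peak in MEFD3plu, while Creb3l1 and Pde7b rise from MEFD0 to MEFD3min.

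Whether treatment acted differently on the days was tested directly as the treatment by day interaction (day 3 minus day 5). It was called for 7 of the 10 genes, 6 positive (Nr4a1, Nr4a3, Sik1, Pde4b, Pde4d and Pde3a) and 1 negative (Pde7b), where 48.5% of all genes were called. The median interaction was 2.04, against -0.03 for all genes. Within treated cells, 8 of the 10 were called in MEFD5plu/MEFD3plu, beside 63.0% of all genes, with 7 lower after removal and only Crem higher. In untreated culture, 5 of 10 were called in MEFD3min/MEFD0 (3 higher, 2 lower), where the share over all genes was 60.0%, so this count does not set the 10 genes apart. Of the 10 genes, 9 were called in MEFD5min/MEFD3min (7 higher, 2 lower), where 42.8% of all genes were called. These comparisons share samples: MEFD3min enters 3 of them and the interaction, so their values are given side by side and not as separate evidence. As the genes were chosen with earlier results of these data known, their counts and medians are descriptions beside all genes and not a test.

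**Figure D2:**
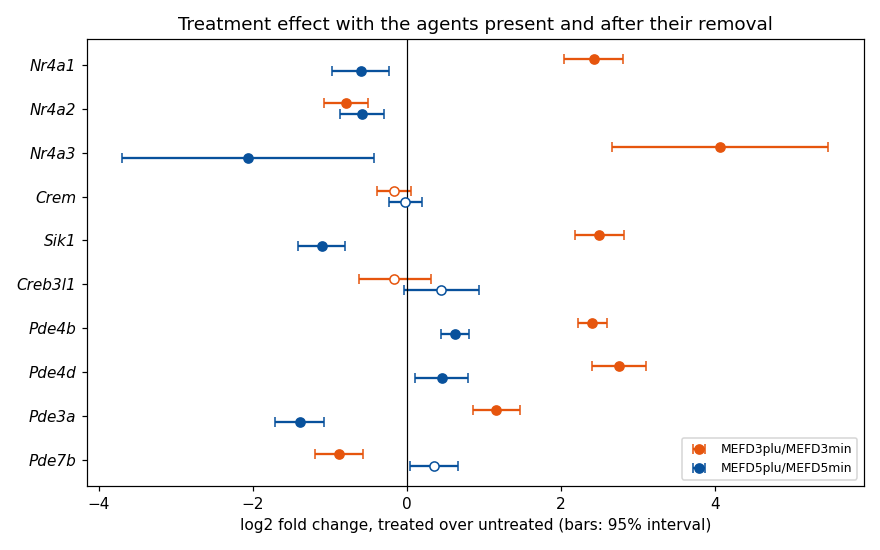
Log2 fold change of treated over untreated cells on the x axis for each of the 10 genes on the y axis, with 95% intervals, on day 3 (MEFD3plu/MEFD3min) and day 5 (MEFD5plu/MEFD5min). Filled points passed the adjusted p of 0.05; Nr4a1, Nr4a3, Sik1 and Pde3a lie above 0 on day 3 and below 0 on day 5.

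Nr4a1 (ENSMUSG00000023034, chr15:101254269-101274795, plus strand, GRCm38) encodes an orphan nuclear receptor that is induced within hours of a cAMP signal and binds DNA as a transcription factor without a known hormone. Its levels were 3.82, 5.84 and 3.26 CPM in MEFD3min and 22.1, 23.9 and 23.9 CPM in MEFD3plu. All treated samples of day 3 lay above every sample of the other conditions. On day 5 the levels were 9.33, 12.2 and 10.1 CPM in MEFD5min and 7.92, 5.64 and 7.27 CPM in MEFD5plu, and MEFD0 had 9.40, 11.1 and 9.05 CPM. The groups of day 5 did not overlap either, but here the treated samples were the lower ones. Nr4a1 was 5.37-fold higher in MEFD3plu than in MEFD3min, a log2 fold change of 2.43 ± 0.183 (SE, n = 3 per condition) with an adjusted p of 5.02e-09 from edgeR's quasi-likelihood test. In MEFD5plu/MEFD5min it was -0.60 ± 0.177 (adjusted p = 0.00952), and without MEFD5plu sample 3, the lowest of its group, -0.47 with an adjusted p of 0.0573. The interaction was 3.02 ± 0.253 (95% interval 2.49 to 3.56, adjusted p = 6.05e-08). In untreated cells Nr4a1 fell by 1.18 on the log2 scale from MEFD0 to MEFD3min (adjusted p = 2.76e-05) and rose by 1.28 from MEFD3min to MEFD5min (adjusted p = 2.61e-05). From high to low the order of conditions was MEFD3plu, MEFD5min, MEFD0, MEFD5plu and MEFD3min, in which MEFD5min and MEFD0 overlapped, as did MEFD5plu and MEFD3min.

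Nr4a2 (ENSMUSG00000026826, chr2:57106830-57124003, minus strand) encodes a receptor of the same family, best known for its need in dopamine neurons and also an early target of CREB. Unlike Nr4a1, it was lower in treated cells at both times. The samples of MEFD3min had 10.7, 12.2 and 10.1 CPM and those of MEFD3plu 7.26, 5.99 and 5.86 CPM. The untreated samples were all above the treated ones. On day 5, 10.2, 8.29 and 8.30 CPM were measured in MEFD5min and 6.64, 5.32 and 6.00 CPM in MEFD5plu, and the day 0 samples had 10.1, 10.6 and 9.10 CPM. Treated samples were again the lower ones without overlap, and the day 0 samples lay among the untreated ones. The log2 fold change was -0.79 ± 0.134 in MEFD3plu/MEFD3min (adjusted p = 8.46e-05) and -0.58 ± 0.135 in MEFD5plu/MEFD5min (adjusted p = 0.00187). The interaction of -0.21 ± 0.19 did not pass the threshold (95% interval -0.61 to 0.20, adjusted p = 0.395), so the effects of both days were not shown to differ. MEFD5plu/MEFD3plu gave -0.09 ± 0.138 (adjusted p = 0.604). In untreated cells the value was 0.15 from MEFD0 to MEFD3min (adjusted p = 0.351) and -0.29 from MEFD3min to MEFD5min (adjusted p = 0.083). Without MEFD5min sample 1 the latter was -0.40, with an adjusted p of 0.0372. The order was MEFD3min, MEFD0, MEFD5min, MEFD3plu and MEFD5plu, with the only gap free of overlap between MEFD5min and MEFD3plu.

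Nr4a3 (ENSMUSG00000028341, chr4:48045153-48086447, plus strand), the remaining receptor of the family, had the fewest counts of the 10 genes, so its counts are given. There were 1, 3 and 1 counts in the samples of MEFD3min, 38, 31 and 18 in those of MEFD3plu, 9, 7 and 6 in MEFD5min, 0, 2 and 3 in MEFD5plu and 0, 2 and 3 in MEFD0. The treated samples of day 3 were all above those of the other conditions, and MEFD5min lay above MEFD5plu, MEFD3min and MEFD0, which overlapped with each other. MEFD0, MEFD3min and MEFD5plu were at or under the floor of 3 counts in every sample. The 87 counts of MEFD3plu against 5 of MEFD3min gave a depth-scaled ratio of 17.5 with an exact 95% interval of 7.22 to 55.3. Of day 5, the 22 counts of MEFD5min against 5 of MEFD5plu gave a ratio of 4.37 (1.61 to 14.8) in favour of the untreated cells. These intervals, and all other intervals of count ratios given here, cover counting error only. In edgeR's quasi-likelihood test the difference was called in MEFD3plu/MEFD3min (adjusted p = 5.4e-05), in MEFD5plu/MEFD5min (adjusted p = 0.0342), in the interaction (adjusted p = 0.000109) and in MEFD5plu/MEFD3plu (adjusted p = 5.05e-05, ratio of MEFD3plu to MEFD5plu 17.6, 7.26 to 55.5). The call of day 5 was lost without MEFD5min sample 1 (adjusted p = 0.0832), MEFD5min sample 3 (0.0822), MEFD5plu sample 1 (0.122) or MEFD5plu sample 3 (0.0668). MEFD5min/MEFD3min, with a ratio of 4.35 (1.61 to 14.7), was also called (adjusted p = 0.0395). That call was lost without MEFD3min sample 1 (0.119), MEFD3min sample 4 (0.0944), MEFD5min sample 1 (0.0928) or MEFD5min sample 3 (0.0925), and with no filter on low counts (0.0577).

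Sik1 (ENSMUSG00000024042, chr17:31844250-31855804, minus strand) encodes a kinase that is itself induced by CREB and that phosphorylates the CREB coactivators of the Crtc family, which keeps them out of the nucleus. Its pattern resembled that of Nr4a1. The samples of MEFD3min had 2.85, 2.36 and 1.92 CPM and the samples of MEFD3plu 13.6, 13.8 and 13.1 CPM. Every MEFD3plu sample was above every sample of the other conditions, and their spread was small. Levels of 9.38, 9.62 and 7.92 CPM in MEFD5min and 4.11, 4.32 and 4.07 CPM in MEFD5plu followed on day 5, and 3.02, 3.45 and 2.60 CPM were measured in MEFD0. The untreated samples of day 5 were thus all above the treated ones. Sik1 was 5.67-fold higher in MEFD3plu/MEFD3min, with a log2 fold change of 2.50 ± 0.151 (adjusted p = 2.9e-10), and 2.15-fold lower in MEFD5plu/MEFD5min, with -1.10 ± 0.144 (adjusted p = 7.65e-06). The interaction of 3.61 ± 0.209 (95% interval 3.17 to 4.05) had an adjusted p of 6.05e-10. Within treated cells it fell by 1.70 on the log2 scale from day 3 to day 5 (adjusted p = 2.85e-08). Untreated cells moved the other way, with a rise of 1.91 in MEFD5min/MEFD3min (adjusted p = 2.66e-08). MEFD3min/MEFD0 was -0.34 (adjusted p = 0.0736). It passed the threshold at -0.45 without MEFD0 sample 4 (0.0368), at -0.49 without MEFD3min sample 1 (0.023) and at -0.46 with scaling by total counts alone (0.028). The order was MEFD3plu, MEFD5min, MEFD5plu, MEFD0 and MEFD3min, of which only MEFD0 and MEFD3min overlapped.

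Crem (ENSMUSG00000063889, chr18:3266048-3337748, minus strand) encodes activating and inhibitory factors that bind cAMP response elements, among them the short cAMP-inducible repressor ICER, and the counts of the whole gene do not separate these forms. It did not pass the test for treatment on either day. MEFD3min had 13.6, 13.2 and 15.9 CPM and MEFD3plu 13.1, 11.3 and 13.7 CPM, and the values overlapped. MEFD5min and MEFD5plu, with 17.9, 16.9 and 20.0 and 17.1, 18.4 and 18.8 CPM, overlapped as well. The lowest levels were those of MEFD0, with 10.7, 11.0 and 11.7 CPM. The log2 fold change was -0.16 ± 0.106 in MEFD3plu/MEFD3min (95% interval -0.39 to 0.06, adjusted p = 0.21) and -0.02 ± 0.104 in MEFD5plu/MEFD5min (95% interval -0.23 to 0.20, adjusted p = 0.919). The interaction was -0.15 ± 0.149 (adjusted p = 0.445). Its sign and that of day 5 changed in some of the alternatives, and none of these values passed the threshold. Crem changed with time: it rose by 0.51 ± 0.105 in MEFD5plu/MEFD3plu (adjusted p = 0.000478), by 0.35 in MEFD3min/MEFD0 (adjusted p = 0.00875) and by 0.36 in MEFD5min/MEFD3min (adjusted p = 0.00993). The rise in MEFD3min/MEFD0 was 0.23 with scaling by total counts alone (adjusted p = 0.0507). The rise in MEFD5min/MEFD3min was 0.29 without MEFD5min sample 4 (adjusted p = 0.0643) and 0.32 with no filter (0.0576). Both day 5 conditions lay above the others without overlap, and MEFD3min, MEFD3plu and MEFD0 followed, each overlapping with its neighbour. Of the exon bases of Crem, 8.01% overlap Gm6225 on the opposite strand. Of the distinct 50-base stretches of its transcripts, 5.72% also occur in Gm6225 on either strand, so both figures can describe the same bases. The strand setting of the counting is not given in the sources used here, so reads of both genes cannot be told apart there.

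Creb3l1 (ENSMUSG00000027230, chr2:91982328-92024502, minus strand) encodes a factor of the CREB and ATF family that is held in the endoplasmic reticulum membrane and, once cleaved, switches on collagen and secretory genes; it is not a classical target of protein kinase A. It differed mainly with time. MEFD0 had 2.09, 1.30 and 1.20 CPM, MEFD3min 43.0, 68.6 and 35.8 CPM and MEFD3plu 43.1, 48.7 and 40.5 CPM. Both groups of day 3 were far above day 0, and the treated samples lay within the wide range of the untreated ones. On day 5 there were 17.0, 11.0 and 13.2 CPM in MEFD5min and 23.4, 14.1 and 19.1 CPM in MEFD5plu, again with overlap. Creb3l1 rose 32.6-fold from MEFD0 to MEFD3min, by 5.03 ± 0.29 on the log2 scale (adjusted p = 1.44e-10). It then fell by 1.84 in MEFD5min/MEFD3min (adjusted p = 6.4e-06) and fell by 1.22 in MEFD5plu/MEFD3plu (adjusted p = 0.000165). The treatment effect was -0.16 ± 0.219 on day 3 (95% interval -0.62 to 0.31, adjusted p = 0.566) and 0.45 ± 0.231 on day 5 (95% interval -0.03 to 0.94, adjusted p = 0.113). Without MEFD3min sample 3, the highest of all, the day 3 value was 0.16 (adjusted p = 0.484). The day 5 value passed the threshold without MEFD5plu sample 3 (0.63, adjusted p = 0.0451) and with no filter on low counts (0.45, adjusted p = 0.00116). The interaction of -0.61 ± 0.318 (adjusted p = 0.125) did so without MEFD3min sample 4 (-0.79, adjusted p = 0.0328) and with no filter (-0.63, adjusted p = 0.00117). The order was MEFD3min, MEFD3plu, MEFD5plu, MEFD5min and MEFD0, where MEFD3min and MEFD3plu overlapped, as did MEFD5plu and MEFD5min.

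Pde4b (ENSMUSG00000028525, chr4:102087543-102607259, plus strand) encodes a phosphodiesterase that acts on cAMP alone and is itself induced by cAMP. Its levels were 13.3, 13.7 and 14.0 CPM in MEFD3min and 67.3, 69.0 and 81.4 CPM in MEFD3plu. The treated samples of day 3 were the highest of all conditions by a wide gap, and the untreated ones were close together. On day 5 the samples of MEFD5min had 18.2, 18.4 and 19.5 CPM and those of MEFD5plu 27.7, 29.8 and 29.1 CPM, while 13.5, 15.2 and 13.9 CPM were found in MEFD0. Treated cells thus remained above untreated ones after removal of the agents, at a lower level. The rise was 5.31-fold in MEFD3plu/MEFD3min, with a log2 fold change of 2.41 ± 0.0901 (adjusted p = 7.57e-13), and 1.54-fold in MEFD5plu/MEFD5min, with 0.63 ± 0.0872 (adjusted p = 1.56e-05). The interaction was 1.78 ± 0.124 (95% interval 1.52 to 2.04, adjusted p = 5.87e-09), and MEFD5plu/MEFD3plu was -1.33 ± 0.0859 (adjusted p = 1.11e-09). Untreated cells gave -0.06 in MEFD3min/MEFD0 (adjusted p = 0.596) and a small rise of 0.45 in MEFD5min/MEFD3min (adjusted p = 0.000574). In the order MEFD3plu, MEFD5plu, MEFD5min, MEFD0 and MEFD3min, only the last pair overlapped.

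Pde4d (ENSMUSG00000021699, chr13:108449948-109953461, plus strand), a phosphodiesterase of the same subfamily, had 4.29, 5.90 and 4.54 CPM in the samples of MEFD3min and 31.9, 36.2 and 31.8 CPM in those of MEFD3plu. No sample of another condition came near the treated samples of day 3. On day 5, MEFD5min had 7.68, 9.74 and 6.27 CPM and MEFD5plu 10.4, 11.4 and 10.5 CPM, and MEFD0 had 9.47, 11.8 and 8.12 CPM. The treated samples of day 5 were just above the untreated ones, without overlap, and within the range of day 0. Pde4d was 6.76-fold higher in MEFD3plu/MEFD3min, with a log2 fold change of 2.76 ± 0.168 (adjusted p = 3.29e-10). The smaller rise in MEFD5plu/MEFD5min was 0.46 ± 0.163 (adjusted p = 0.0279). This call was lost without MEFD5min sample 1 (0.44, adjusted p = 0.074), MEFD5min sample 4 (0.27, 0.197), MEFD5plu sample 3 (0.41, 0.0877) or MEFD5plu sample 4 (0.47, 0.0522), and with scaling by total counts alone (0.29, 0.172). The interaction of 2.30 ± 0.232 (95% interval 1.81 to 2.79) had an adjusted p of 5.43e-07. Pde4d fell by 1.63 in MEFD5plu/MEFD3plu (adjusted p = 1.51e-07) and fell by 0.99 in MEFD3min/MEFD0 (adjusted p = 7.25e-05), and it rose by 0.67 in MEFD5min/MEFD3min (adjusted p = 0.0043). From high to low, MEFD3plu came before MEFD5plu, MEFD0, MEFD5min and MEFD3min, and each neighbouring pair from MEFD5plu to MEFD5min overlapped.

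Pde3a (ENSMUSG00000041741, chr6:141249269-141507448, plus strand) encodes a phosphodiesterase that cleaves cAMP and is inhibited by cyclic GMP. It was higher in treated cells on day 3 and lower in them on day 5. There were 9.78, 12.3 and 8.14 CPM in MEFD3min and 21.6, 23.6 and 22.4 CPM in MEFD3plu. The treated samples were all higher, and also above every sample of the remaining conditions. There were 14.9, 15.8 and 12.0 CPM in MEFD5min, 6.11, 4.61 and 5.52 CPM in MEFD5plu and 11.8, 11.4 and 10.3 CPM in MEFD0. MEFD5plu held the lowest samples of all conditions. The log2 fold change was 1.16 ± 0.144 in MEFD3plu/MEFD3min, 2.24-fold (adjusted p = 2.52e-06), and -1.39 ± 0.151 in MEFD5plu/MEFD5min, 2.62-fold lower (adjusted p = 1.06e-06). The interaction was 2.55 ± 0.209 (95% interval 2.11 to 2.99, adjusted p = 4.48e-08). From MEFD3plu to MEFD5plu it fell by 2.06 (adjusted p = 5.44e-09). In untreated cells MEFD3min/MEFD0 was -0.15 (adjusted p = 0.4), and MEFD5min/MEFD3min was higher by 0.49 (adjusted p = 0.0107) although the samples overlapped. MEFD3plu, MEFD5min, MEFD0, MEFD3min and MEFD5plu followed each other in level. MEFD3min overlapped with MEFD0 and with MEFD5min, and no other groups overlapped. Of the exon bases of Pde3a, 5.82% overlap Gm28523 on the opposite strand. Of the distinct 50-base stretches of its transcripts, 5.64% also occur in other genes on either strand, with Gm28523, Vmn1r43 and Pfas first among them. Both figures can describe the same bases.

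Pde7b (ENSMUSG00000019990, chr10:20398004-20725078, minus strand) encodes a cAMP-specific phosphodiesterase. It was the member of the group with the largest change in untreated culture. MEFD0 had 2.06, 2.41 and 1.76 CPM, MEFD3min 130, 134 and 117 CPM and MEFD3plu 71.6, 72.3 and 62.5 CPM. All samples of day 3 were far above day 0, and the treated ones were lower than the untreated ones without overlap. On day 5, 80.2, 45.5 and 73.6 CPM were measured in MEFD5min and 86.2, 81.2 and 86.8 CPM in MEFD5plu. MEFD5min sample 3 was well below samples 1 and 4 of its group, and every treated sample lay just above the highest untreated one. Pde7b rose 60.8-fold in MEFD3min/MEFD0, by 5.93 ± 0.197 on the log2 scale (adjusted p = 3.69e-13), and fell by 0.93 in MEFD5min/MEFD3min (adjusted p = 7.88e-05). Treatment gave -0.88 ± 0.148 on day 3 (adjusted p = 7.38e-05) and 0.35 ± 0.148 on day 5, which missed the threshold (95% interval 0.04 to 0.66, adjusted p = 0.0598). The day 5 value passed it with the replicate block (0.36, adjusted p = 0.0351), without MEFD5min sample 1 (0.50, adjusted p = 0.0144) and with no filter (0.35, adjusted p = 0.00462). The interaction was -1.23 ± 0.209 (95% interval -1.67 to -0.79, adjusted p = 0.000133), opposite in sign to those of Pde4b, Pde4d and Pde3a. MEFD5plu/MEFD3plu was 0.30 ± 0.148 (adjusted p = 0.0866), which passed with no filter (0.28, adjusted p = 0.0258) and in a fit of only the samples compared (0.26, adjusted p = 0.00817). The order was MEFD3min, MEFD5plu, MEFD3plu, MEFD5min and MEFD0, and only MEFD3plu and MEFD5min overlapped.

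Levels of different genes were compared per length, as CPM per kilobase of exon (RPKM, mean of 3 samples). In MEFD3plu, Creb3l1 had 17.0 RPKM, Pde4b 6.87, Nr4a1 6.64 and Pde7b 5.53. Pde4d at 2.77, Sik1 at 2.63, Crem at 2.16, Pde3a at 1.77 and Nr4a2 at 1.57 RPKM followed. Nr4a3 was lowest at 0.155 RPKM, and it was the lowest of the 10 in each of the 5 conditions. In MEFD0 the 10 genes lay between 0.00762 (Nr4a3) and 2.81 RPKM (Nr4a1). In MEFD5plu, Creb3l1 with 7.25 and Pde7b with 6.81 RPKM were the most abundant, and Pde3a had 0.425 RPKM. The order depends on the length used. With the mean transcript length in place of all exon bases, Creb3l1 was no longer the most abundant in MEFD3plu, with 17.0 RPKM after 36.6 for Pde4b, 26.5 for Pde7b and 17.7 for Pde4d.

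For each of the 10 genes, the 3 genes with the most similar profile were taken by Pearson's r of log2 CPM over the 15 samples, among 11453 genes (mean log2 CPM of 1 or more). The samples of a condition share their treatment and time, so r describes these 5 conditions more than 15 independent points. Dclre1b (r = 0.974), Apbb1ip (0.971) and Dus1l (0.970) were most like Nr4a1. Dclre1b had 18.1 CPM in MEFD3plu and 5.14 in MEFD3min, and 7.36 in MEFD5plu and 8.54 in MEFD5min. St3gal2 (0.962), Etv5 (0.962) and Rnf157 (0.955) were most like Nr4a2, and Edrf1 (0.939), BC005561 (0.916) and Sema6d (0.914) most like Nr4a3. For Sik1 they were Prkab2 (0.971), 1190002N15Rik (0.963) and Nt5e (0.949), and for Crem Zswim7 (0.961), Yaf2 (0.960) and 4921524J17Rik (0.960). Igfbp5 (0.991), Reck (0.989) and the collagen gene Col3a1 (0.989) were nearest to Creb3l1. Col3a1 had 215 CPM in MEFD0, 8681 in MEFD3min and 2240 in MEFD5min. Among the phosphodiesterases, Pde4b was matched by Gphn (0.993), Dlc1 (0.987) and Frzb (0.984), and Pde4d by Crybg3 (0.984), the unnamed gene ENSMUSG00000091562 (0.982) and Osbpl11 (0.974). Frzb, which encodes a secreted Wnt antagonist, had 6.87 CPM in MEFD3min, 123 in MEFD3plu and 18.8 in MEFD5plu. Pde3a was matched by Zswim6 (0.978), Furin (0.968) and Atg2b (0.966), and Pde7b by Enpp1 (0.996), Pcp4l1 (0.990) and Islr (0.990).

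Promoter windows of 250 bases before to 50 after the RefSeq transcription start (GRCm38.p6) were searched for the letters TGACG on either strand, the core of the cAMP response element. Windows were given for 6 of the 10 genes, 9 windows in all, and there was no entry for Crem, Sik1, Creb3l1 and Pde3a. TGACG occurred 4 times in the window of Nr4a1, 4 times in that of Nr4a2 and 4 times in that of Nr4a3. It occurred 1 time in 1 of the 4 windows of Pde4b and not in the windows of Pde4d and Pde7b. Of all 32851 windows searched, 6837 (20.8%) held it at least 1 time and 76 (0.231%) at least 4 times. The full palindrome TGACGTCA, which contains TGACG on both strands and is held by 1.79% of all windows, was in none of the 9 windows (0 of 9), nor was the NR4A monomer motif AAAGGTCA, held by 1.51%. A match is a description of letters and not of a bound site, and no match says only that the letters are not in the window. The sequences of the NR4A windows before the transcription start are shown, since these 3 genes hold the most matches among the 6 with a window. Nr4a1 and Nr4a3 were higher and Nr4a2 lower in MEFD3plu than in MEFD3min, and a link between matches and levels was not tested. The sequences are written 5′ to 3′ on the strand of the gene, with TGACG and its reverse complement CGTCA in capitals. The sequence of Nr4a1 is chr15:101266596-101266845 (plus strand) and that of Nr4a2 chr2:57124004-57124253 (minus strand). That of Nr4a3 is chr4:48045055-48045152 (plus strand), which ends at the base before its annotated first exon and holds 3 of its 4 matches.
Nr4a1: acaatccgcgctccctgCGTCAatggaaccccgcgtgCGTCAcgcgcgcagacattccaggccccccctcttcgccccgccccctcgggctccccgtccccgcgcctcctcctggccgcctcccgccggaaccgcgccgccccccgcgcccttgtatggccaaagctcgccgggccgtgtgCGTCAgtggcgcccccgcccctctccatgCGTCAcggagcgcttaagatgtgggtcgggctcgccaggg
Nr4a2: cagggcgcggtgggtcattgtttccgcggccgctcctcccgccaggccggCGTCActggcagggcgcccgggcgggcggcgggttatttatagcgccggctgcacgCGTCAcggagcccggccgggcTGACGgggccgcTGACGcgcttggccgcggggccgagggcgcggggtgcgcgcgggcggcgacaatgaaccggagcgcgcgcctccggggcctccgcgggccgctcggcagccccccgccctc
Nr4a3: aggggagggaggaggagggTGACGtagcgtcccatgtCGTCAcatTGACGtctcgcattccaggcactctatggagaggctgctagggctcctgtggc

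In Nr4a1 the matches began 233, 213, 69 and 40 bases before the start, all on the opposite strand. Those of Nr4a2 began 200 and 144 bases before it on the opposite strand and 123 and 111 bases before it on the strand of the gene. In Nr4a3 they began 231, 205 and 147 bases before the start on the strand of the gene and 213 bases before it on the opposite strand. The match of Pde4b, in the window chr4:102421305-102421604, began 34 bases before the start on the opposite strand.

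**Figure D3:**
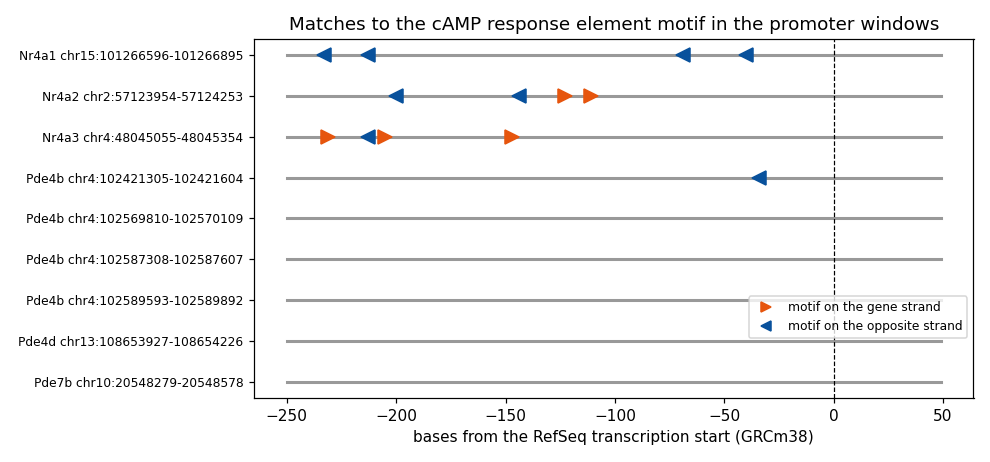
Position of each match to TGACG, in bases from the RefSeq transcription start on the x axis, in the 9 promoter windows of 6 genes on the y axis; the direction and colour of a triangle give the strand. The windows of Nr4a1, Nr4a2 and Nr4a3 hold 4 matches each, and that of Pde4b at chr4:102421305-102421604 holds 1.

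The other genes of the pathway were described from lists by function, with mean CPM of 3 samples. The lists too were chosen with earlier results of these data known, so their counts are descriptions beside all genes and not a test. Of 20 further phosphodiesterase genes, 13 were tested. In MEFD3plu/MEFD3min 3 were higher and 7 lower, with a median of -0.49 (-0.42 with Pde6h left out, which was at the floor in both groups) against -0.00 for all genes, of which 56.1% were called. In MEFD5plu/MEFD5min, where 50.5% of all genes were called, 5 were higher and 2 lower, with a median of 0.10 against 0.01, and the count lower was 1 without MEFD5plu sample 1 and 0 without MEFD5plu sample 3 or 4. The insulin-responsive Pde3b of fat cells stood out, from 6.84 CPM in MEFD3min to 334 in MEFD3plu and from 11.6 in MEFD5min to 138 in MEFD5plu. Its log2 fold change was 5.61 ± 0.0948 on day 3 (adjusted p = 1.21e-16) and 3.57 ± 0.0862 on day 5 (adjusted p = 7.32e-15), so unlike Pde3a it was higher in treated cells at both times. The calmodulin-dependent Pde1c rose by 4.48 ± 0.391 on day 3 (0.186 to 4.40 CPM) and by 2.78 ± 0.363 on day 5, and Pde10a, which cleaves both cyclic nucleotides, by 2.78 ± 0.211 and 2.51 ± 0.227. The cyclic GMP-specific Pde5a was lower on day 3, at -3.49 ± 0.33 (3.78 to 0.340 CPM, adjusted p = 9.48e-08), and higher on day 5, at 1.32 ± 0.28 (adjusted p = 0.000853).

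Adenylyl cyclases make cAMP. Of 10 such genes, 9 were tested, and 3 were higher and 4 lower in MEFD3plu/MEFD3min (median -0.09), where 56.1% of all genes were called. In MEFD5plu/MEFD5min, with 50.5% of all genes called, 1 was higher and 1 lower (median -0.01), and 2 were higher without MEFD5plu sample 3. Adcy6 had the highest CPM of the list in MEFD3plu, and Adcy8 in the other 4 conditions. Adcy6 rose from 73.0 CPM in MEFD3min to 133 in MEFD3plu, by 0.87 ± 0.145 (adjusted p = 6.97e-05), while MEFD5min and MEFD5plu had 55.0 and 54.5 CPM (adjusted p = 0.951). Adcy7 and the calcium-stimulated Adcy8 were lower on day 3, at -1.74 ± 0.155 and -1.32 ± 0.126. On day 5 Adcy7 was lower by -0.73 ± 0.15 (adjusted p = 0.000673). The soluble cyclase Adcy10 rose by 1.87 ± 0.525 on day 3 and by 2.19 ± 0.453 on day 5, but at under 1 CPM (0.314 in MEFD3plu and 0.611 in MEFD5plu). Adcy4, also at under 1 CPM, was at -2.63 ± 0.695 on day 3.

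Among the subunits, anchors and inhibitors of protein kinase A, 18 of 20 genes were tested. In MEFD3plu/MEFD3min 9 were higher and 8 lower, beside 28.0% of all genes higher and 28.0% lower, with a median of 0.19. In MEFD5plu/MEFD5min 5 were higher and 1 lower (median -0.03), where 26.3% of all genes were higher and 24.2% lower. There 2 were lower without MEFD5plu sample 1, 3 higher without MEFD5min sample 4, and 3 higher and 6 lower with scaling by total counts alone. The inhibitors Pkia and Pkig were downregulated on day 3, Pkia from 40.9 to 6.62 CPM (-2.63 ± 0.136, adjusted p = 3.75e-11) and Pkig from 41.9 to 17.4 CPM (-1.26 ± 0.118, adjusted p = 7.7e-08). The levels of day 5 were 26.0 and 22.3 CPM for Pkia and 51.2 and 50.2 CPM for Pkig in MEFD5min and MEFD5plu, without a call. The day 5 value of Pkia, -0.22 ± 0.125 (adjusted p = 0.153), passed the threshold at -0.38 with total counts alone (0.0101) and at -0.22 in a fit of only the samples compared (0.0473). Prkar2b, the regulatory subunit that prevails in fat tissue, was higher by 0.91 ± 0.0708 on day 3 and by 0.91 ± 0.0709 on day 5 (adjusted p = 1.89e-08). Prkar2a was higher on day 3 (0.71 ± 0.0923) and lower on day 5 (-0.72 ± 0.0921, adjusted p = 6.11e-06). Prkar1a had the highest CPM of the list, with 515 in MEFD3min and 399 in MEFD3plu (-0.37 ± 0.0837). The anchor genes Akap2 and Akap5 had few counts. Akap2 went from 1.04 to 0.296 CPM on day 3 (-1.79 ± 0.324) and Akap5 from 0.236 to 0.695 CPM (1.54 ± 0.519), and the call of Akap5 was lost without MEFD3min sample 4 (1.45, adjusted p = 0.0531) or MEFD3plu sample 3 (0.91, adjusted p = 0.175).

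The list of CREB and ATF factors, their coactivators and the kinases Sik2 and Sik3 had 17 of 18 genes tested. In MEFD3plu/MEFD3min 2 were higher and 5 lower (median -0.01), beside 56.1% of all genes called in either direction. The count higher was 7 without MEFD3min sample 3 and 4 with the replicate block, and the count lower was 3 without MEFD3min sample 1. In MEFD5plu/MEFD5min, with 50.5% of all genes called, 5 were higher and 7 lower (median -0.16). There 3 were higher without MEFD5min sample 4 or MEFD5plu sample 4, 4 were lower without MEFD5plu sample 3, and 2 were higher with scaling by total counts alone. Sik2, a kinase related to Sik1 and abundant in fat cells, rose from 21.3 to 104 CPM on day 3, by 2.29 ± 0.108 (adjusted p = 1.17e-11). The factor Creb5 was the most reduced, from 11.5 to 0.568 CPM on day 3 (-4.35 ± 0.238, adjusted p = 7.63e-11) and from 21.5 to 6.74 CPM on day 5 (-1.67 ± 0.172, adjusted p = 5.42e-07). Atf2 and Creb3l4 were lower on day 3, at -0.47 ± 0.0649 and -0.99 ± 0.289. Both were called higher on day 5, Atf2 by 0.21 ± 0.0647 (adjusted p = 0.0127) and Creb3l4 by 0.73 ± 0.267 (adjusted p = 0.0309), and their interactions were -0.68 ± 0.0917 (adjusted p = 1.26e-05) and -1.72 ± 0.394 (adjusted p = 0.0017). The day 5 call of Atf2 was lost without MEFD5min sample 4 (0.17, 0.0836) or MEFD5plu sample 4 (0.18, 0.0615), with no filter (0.21, 0.137) and with total counts alone (0.05, 0.6). That of Creb3l4 was lost without MEFD5min sample 1 (0.62, 0.118), MEFD5min sample 4 (0.70, 0.0879), MEFD5plu sample 3 (0.77, 0.0579) or MEFD5plu sample 4 (0.62, 0.118), with DESeq2 (0.69, 0.0534), with no filter (0.73, 0.12) and with total counts alone (0.57, 0.0845). Sik3 was lower on day 5, at -0.87 ± 0.151 (adjusted p = 0.000139). Creb3l2, the close relative of Creb3l1 and the gene of the list with the highest CPM in every condition but MEFD0, had 323 CPM in MEFD3min and 286 in MEFD3plu (adjusted p = 0.376). It was called lower on day 5, 151 CPM in MEFD5plu against 204 in MEFD5min (-0.43 ± 0.163, adjusted p = 0.0351), and the call was lost without MEFD5min sample 1 (-0.31, 0.167), MEFD5plu sample 3 (-0.34, 0.144) or MEFD5plu sample 4 (-0.46, 0.0658).

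Epac proteins, cyclic nucleotide-gated channels and Popeye proteins also bind cAMP. Of 10 such genes, 7 were tested. In MEFD3plu/MEFD3min 3 were higher and 2 lower, with a median of 0.25 (0.51 with genes at the floor in 1 group set to their bound and Popdc3, at the floor in both, left out), and 1 was lower without MEFD3min sample 3. Over all genes 56.1% were called there and 50.5% in MEFD5plu/MEFD5min, in which 2 genes of the list were higher and 3 lower (median -0.04). The count higher was 1 without MEFD5min sample 1, MEFD5min sample 4 or MEFD5plu sample 1, and 4 without MEFD5min sample 3. Rapgef3, which encodes Epac1, was lower on both days, from 17.3 to 4.39 CPM on day 3 (-1.98 ± 0.152, adjusted p = 6.48e-09) and from 17.3 to 8.67 CPM on day 5 (adjusted p = 2.2e-05). Rapgef4, which encodes Epac2, had 19 counts in MEFD3min and 2 in MEFD3plu, a ratio of 9.44 in favour of untreated cells (2.28 to 83.6). Its call on day 3 (adjusted p = 0.0125) was lost without MEFD3min sample 3 (adjusted p = 0.0841). Rapgef2 had the highest CPM, 38.2 in MEFD3plu against 32.2 in MEFD3min and 19.9 in MEFD5plu against 31.8 in MEFD5min, and was called on day 5 (-0.67 ± 0.133, adjusted p = 0.000503). Its day 3 value of 0.25 ± 0.131 missed the threshold (adjusted p = 0.12) but passed it at 0.40 without MEFD3min sample 3 (0.0106) and at 0.26 with the replicate block (0.0385). The channel gene Hcn4 had 3 counts in MEFD3min and 62 in MEFD3plu, a ratio of 20.8 (6.79 to 104), and the call (adjusted p = 0.000863) was kept when any sample was left out, with a fitted log2 fold change of 4.24 that rests on few counts and was 7.40 without MEFD3min sample 3. On day 5 it was higher by 2.66 ± 0.826 (adjusted p = 0.0128). That call was lost without MEFD5min sample 1 (2.23, 0.0652), MEFD5min sample 4 (1.97, 0.0638) or MEFD5plu sample 1 (2.08, 0.0769), and the value was 4.81 without MEFD5min sample 3. Popdc3 had no count in MEFD5min and 64 in MEFD5plu, at least 6.95-fold higher against a floor of 3 counts per library.

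All 24 genes on the list of other known CREB targets were tested. Among them, Pde10a is also on the list of further phosphodiesterases. In MEFD3plu/MEFD3min 15 were higher and 5 lower, with a median of 0.73 against -0.00 for all genes, of which 28.0% were higher and 28.0% lower. In MEFD5plu/MEFD5min 7 were higher and 7 lower, with a median of -0.04 against 0.01, where 50.5% of all genes were called, so this count does not set the list apart. The interaction was positive for 12 and negative for 3, beside 22.6% and 25.8% of all genes, with a median of 0.67 against -0.03. The G protein regulator Rgs2 was high in treated cells at both times, 170 CPM in MEFD3plu against 9.88 in MEFD3min and 76.6 CPM in MEFD5plu against 4.62 in MEFD5min (4.11 ± 0.138 on day 3 and 4.06 ± 0.144 on day 5). Ppargc1a, the coactivator of mitochondrial genes, rose from 0.712 to 9.41 CPM on day 3 (3.69 ± 0.244, adjusted p = 9.22e-10) and from 0.692 to 4.83 CPM on day 5 (2.81 ± 0.25, adjusted p = 9.72e-08), and the interaction was not called (adjusted p = 0.0526). Pck1, which encodes an enzyme of glucose and glycerol synthesis, had no count in the untreated conditions. It was at least 17.1-fold higher in MEFD3plu (1.59 CPM) and at least 175-fold higher in MEFD5plu (16.5 CPM), against a floor of 3 counts per library. Stc1, a secreted glycoprotein with the highest CPM of the list in every condition but MEFD0, was lower on day 3, from 620 to 212 CPM (-1.55 ± 0.114, adjusted p = 3.74e-09), and had 144 and 164 CPM on day 5 (adjusted p = 0.172).

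The last list has 9 genes for collagen and secretion that Creb3l1 is known to switch on. All 9 were higher in MEFD3min/MEFD0 (median 1.03 against 0.04 for all genes, of which 31.4% were higher), where Creb3l1 rose as well. In MEFD3plu/MEFD3min 8 of 9 were lower and 0 higher (median -0.87), beside 28.0% of all genes lower, while Creb3l1 was not called. Col1a1 and Col1a2 are also among the 8 fibroblast markers, most of which moved the same way. Of these markers, 6 were higher and 1 lower in MEFD3min/MEFD0 (median 2.45), and 6 lower and 1 higher in MEFD3plu/MEFD3min (median -1.71). The part of this change in the list was not tested. Col1a1 went from 2914 to 825 CPM (-1.82 ± 0.272, adjusted p = 2.11e-05), Col1a2 from 6217 to 2049 CPM (-1.60 ± 0.192, adjusted p = 1.76e-06) and the vesicle coat gene Sec23a from 369 to 179 CPM (-1.05 ± 0.103, adjusted p = 1.45e-07). Sp7, a factor of bone formation, had 67 counts in MEFD3min and 5 in MEFD3plu, a ratio of 13.3 in favour of untreated cells (5.43 to 42.4, counting error only), and was called by edgeR's test (adjusted p = 0.000153). In MEFD5plu/MEFD5min 1 was higher and 4 lower (median -0.15), where 50.5% of all genes were called. The count lower was 1 without MEFD5min sample 1, MEFD5plu sample 3 or MEFD5plu sample 4, and the count higher was 0 without any sample of the comparison but MEFD5min sample 4. Sp7 was lower there by -2.39 ± 0.49 (adjusted p = 0.000647). The call of Col1a1 on day 5 (-0.79 ± 0.266, adjusted p = 0.0195) was lost without MEFD5min sample 1 (0.0942), MEFD5plu sample 3 (0.092) or MEFD5plu sample 4 (0.0682).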

How the data were processed

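RNA of 15 MEF samples, 3 for each of 5 conditions, was sequenced, and for each sample the authors deposited raw counts of reads per Ensembl gene, without normalization. The submitters' processing notes name TopHat2 2.1.0, HTSeq and DESeq2 and the mouse build GRCm38 (mm10). The library kit is named differently in the labels and in the methods, and the strand setting of the counting is not given in the sources used here. Depth ranged from 24030558 to 37281126 counts. Genes with 3 counts or fewer in each library of a condition were at the floor there.

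Gene identifiers were matched to GENCODE M21 (GRCm38), and 46091 of 46603 had a name. The filterByExpr function of edgeR 4.0.16 (R 4.3.3) retained 15997 genes, and edgeR scaled libraries by TMM and fitted 1 coefficient per condition over all 15 samples. The quasi-likelihood test with Benjamini-Hochberg adjustment over all genes tested gave 6 comparisons. Standard errors and 95% intervals come from that fit, and RPKM used the exon bases of each gene. Ratios of few counts have exact 95% intervals, scaled for depth. The fitting steps were tested on simulated counts.

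The 10 genes and the lists were chosen with earlier results of these data known. All 10 genes are named. From each list, the text names up to 4 called genes with the largest change on day 3, up to 2 on day 5 and the gene with the highest mean CPM. Alternatives were DESeq2 1.42.0, DESeq2's size factors in edgeR, total counts alone, no filter, at least 10 counts in every sample, only the samples compared, a block for the replicate number, and fits that left out 1 sample. Those for the genes of the lists and their counts were added after seeing the data. Samples with the same number deviated together in MEFD3plu/MEFD3min, with correlations of 0.143, 0.228 and 0.360 for the numbers 1, 3 and 4, and the labels do not say what the numbers share. Promoter sequences are from RefSeq. The staining, PCR and network parts of the study were not analysed here.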

Additional observations from a re-analysis of the deposited data

Results flagged for a closer look

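In 7 of the 10 genes the treatment effect differed between day 3 and day 5 by a test of the difference itself, the interaction in edgeR's quasi-likelihood fit, which was called for 48.5% of all genes tested. The difference of the log2 fold changes, day 3 minus day 5, was 3.02 for Nr4a1, 3.61 for Sik1 and 2.55 for Pde3a, which were higher in treated cells on day 3 and lower on day 5. The day 5 call of Nr4a1 was lost without MEFD5plu sample 3. The difference was 6.13 for Nr4a3 with the same change of direction, a fitted value that rests on few counts, and its day 5 call was lost in 4 of the 6 fits without a sample of that day. For Pde4b it was 1.78 and for Pde4d 2.30, both higher in treated cells on both days, though the day 5 call of Pde4d was lost in 4 of these 6 fits and with scaling by total counts alone. For Pde7b it was -1.23, with lower levels in treated cells on day 3 and no call on day 5.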

How the results depend on the processing

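Over the 60 log2 fold changes of the 10 genes, the alternatives other than leaving out a sample gave 411 values, of which 398 kept their direction and their side of the threshold, 4 lost a call, 7 gained a call and 2 changed direction. Leaving out each sample in turn gave 420 values, of which 394 kept both, 14 lost a call, 6 gained a call and 6 changed direction. Every call lost or gained is named with its gene in the report, and the cause was not tested.

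With the replicate block, 8 of the 10 genes were called in MEFD3plu/MEFD3min, 8 in MEFD5plu/MEFD5min, where Pde7b was gained (0.36), 7 in the interaction and 8 in MEFD5plu/MEFD3plu, and no other call among the 10 genes changed. Of all 15997 genes, 9452, 8607, 8305 and 10415 were called in these fits. In MEFD3plu/MEFD3min alone, every number had a correlation of deviations above 0.1. Those in MEFD3min/MEFD0 were also positive, at 0.0837, 0.132 and 0.18 for the numbers 1, 3 and 4. In the other comparisons at least 1 number had a correlation of deviations under 0.1, the lowest being -0.00453 in MEFD5plu/MEFD5min, -0.103 in MEFD5plu/MEFD3plu, 0.0837 in MEFD3min/MEFD0 and -0.0114 in MEFD5min/MEFD3min. With 1 sample left out, 8 to 8 of the 10 genes were called in MEFD3plu/MEFD3min, 5 to 6 in MEFD5plu/MEFD5min, 7 to 8 in the interaction, 8 to 8 in MEFD5plu/MEFD3plu, 5 to 6 in MEFD3min/MEFD0 and 8 to 9 in MEFD5min/MEFD3min. Over all genes, the numbers called in the same order were 8157 to 9283, 6818 to 7692, 7032 to 8498, 9146 to 9950, 8860 to 9692 and 5937 to 7286.

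The values that changed direction did not pass the threshold in either form. With scaling by total counts alone they were 0.04 for Crem in the interaction, -0.03 for Nr4a3 in MEFD3min/MEFD0 and -0.13 for Prkar1a in MEFD5plu/MEFD5min, which was also -0.01 with DESeq2 and -0.01 with its size factors. Without MEFD3min sample 3, the day 3 values were 0.16 for Creb3l1, 0.14 for Sik3 and 0.06 for Creb3l2, and Nr4a3 in MEFD3min/MEFD0 was -0.52, or -0.39 without MEFD0 sample 1. Nr4a2 in MEFD5plu/MEFD3plu was 0.01 without MEFD3plu sample 1. On day 5, without MEFD5min sample 4, Crem was 0.01, Akap5 0.36 and Pkig 0.01. Without MEFD5plu sample 1 they were 0.02, 0.30 and 0.01. Adcy6 was 0.04 without MEFD5min sample 1, 0.04 without MEFD5plu sample 3 and 0.01 without MEFD5plu sample 4, and Prkar1a was -0.02 without MEFD5min sample 3. Over all samples left out, the ranges were -0.34 to 0.16 for Creb3l1, -0.24 to 0.14 for Sik3 and -0.32 to 0.06 for Creb3l2 on day 3, -0.52 to 0.72 for Nr4a3 in MEFD3min/MEFD0 and -0.17 to 0.01 for Nr4a2 in MEFD5plu/MEFD3plu. On day 5 they were -0.07 to 0.02 for Crem, -0.09 to 0.04 for Adcy6, -0.35 to 0.36 for Akap5 and -0.11 to 0.01 for Pkig.

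Scaling by total counts alone shifted the median over all genes by -0.16 in MEFD5plu/MEFD5min, by 0.18 in the interaction, by -0.12 in MEFD3min/MEFD0, by -0.08 in MEFD5plu/MEFD3plu and by 0.10 in MEFD5min/MEFD3min. The share of calls that were higher went from 52.1% to 37.0% in MEFD5plu/MEFD5min, from 46.7% to 59.5% in the interaction, from 52.3% to 43.9% in MEFD3min/MEFD0, from 53.6% to 49.1% in MEFD5plu/MEFD3plu and from 49.7% to 62.7% in MEFD5min/MEFD3min. With the mean transcript length, 36 of 50 places in the RPKM order of the 10 genes moved, and 3 of 40 summed marker levels moved by more than their SD with total counts. The values of Nr4a3 rest on few counts, with at most 3 counts per library in MEFD0, MEFD3min and MEFD5plu.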
